A study of Homo sapiens with 4 samples.

Results

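Solute carrier (SLC) genes encode the membrane transporters that move amino acids, sugars, ions, metals, nucleotides and other small molecules across the plasma membrane, the mitochondrial inner membrane and the membranes of lysosomes and the Golgi. They were examined here for chromatin regions bound by OGA in naive human embryonic stem cells. The members were all gene symbols in the deposited lists made of SLC, a family number, the letter A and a member number, or of SLCO with its subfamily and member. This gave 89 genes of 6757 gene names in both lists together, from 35 families. In control cells 87 of them had 123 of the 8977 distinct regions, and after OGA knockdown 14 had 15 of 1334 regions. All 89 carried a deposited description as a solute carrier and a RefSeq symbol typed as protein coding.

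OGA (O-GlcNAcase) takes the sugar O-GlcNAc off nuclear and cytosolic proteins, and the donor for that mark is made from glucose, glutamine, acetyl-CoA and UTP. The families are numbered by sequence likeness and transported substrate. SLC2 holds facilitative carriers, mostly of glucose and other sugars. SLC7 holds amino acid carriers, of which several need the heavy chain SLC3A2 to reach the cell surface. SLC25 holds mostly carriers of the mitochondrial inner membrane, and SLC35 carriers that bring nucleotide sugars into the Golgi and endoplasmic reticulum. Glucose and amino acid carriers supply rapidly dividing pluripotent cells with fuel and building blocks.

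The cells were H9, an established embryonic stem cell line, in naive PXGL culture: N2B27 medium with PD0325901, XAV939, Go¨ 6983 and human LIF on a layer of mouse embryonic fibroblasts, and with no further treatment in any group. OGA was profiled by CUT&Tag, in which an antibody guides a transposase that cuts and tags nearby DNA, in 2 control libraries of genotype WT and 2 libraries of genotype OGA knockdown, titled shOGA. How much OGA remained after knockdown, and whether the cells were a clone or a pool, was not given in the sources used here. All 8 pluripotency genes looked up as a check of the cell type, POU5F1, SOX2, NANOG, SALL4, LIN28A, L1TD1, DPPA4 and DNMT3L, had a control region, although occupancy by OGA is not a measure of their expression.

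Each group had a single list of regions, and every listed region named at least 1 peak of replicate 1 and at least 1 of replicate 2. The lists gave position, width, annotation and distance to the nearest start site, and no read count, signal or score. Depth was therefore unknown, no region had a value per library, and no difference between the groups could be tested against replicate spread. The highest peak numbers were 24287 and 28210 in the control replicates and 14203 and 13946 in the knockdown replicates, and each library had at least that many peaks. A region missing from the knockdown list may still have had a peak in 1 replicate. In bulk chromatin, fewer cells with OGA at a site and less OGA per cell cannot be told apart.

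The 3 widest OGA regions at solute carriers were assigned to 1 gene of the amino acid class, SLC3A2, and the widest also reached neighbouring genes. Mitochondrial and sugar carriers had the largest shares of genes with a region, and organic ion carriers had few at promoters. Among the 358 protein-coding RefSeq genes that fit the naming rule, 87 had a control region (24.3%, Wilson 95% interval 20.1 to 29.0, counting error only), against 21.4% of all 20056 protein-coding genes. A promoter region, within 3 kb of a start site, was listed for 49 (13.7%, 10.5 to 17.6), against 14.6% of all. SLC genes as a whole were thus near the background. By class, a control region was listed for 14 of 37 sugar carriers, 17 of 48 mitochondrial carriers, 4 of 12 vitamin carriers and 19 of 62 amino acid carriers. It was listed for 3 of 12 nucleoside and nucleotide sugar carriers, 3 of 13 monocarboxylate carriers, 9 of 51 inorganic ion carriers, 9 of 55 organic ion carriers, 5 of 32 metal carriers, 2 of 13 lipid and choline carriers and 2 of 15 of other families. SLC35 entered these counts with its A members only (5 genes). Genes such as SLC35B1 and SLC35F2, which also had control regions, fell outside the rule. None of the 5 peptide carriers of SLC15 or the 3 vesicular neurotransmitter carriers of SLC18 had one. Vesicular carriers of other families were counted in other classes. An example is the vesicular glutamate carrier SLC17A7, which had a control region and was counted with organic ions. Of the 14 sugar carriers with a region, 11 belonged to SLC2, a family of 14 genes. Promoter regions were listed for 14 amino acid (22.6%), 10 mitochondrial (20.8%), 6 sugar (16.2%), 5 inorganic ion (9.80%) and 2 organic ion carriers (3.64%). The highest promoter share was that of the monocarboxylate carriers (3 of 13, 23.1%). The differences between classes were not tested, and a gene can only be counted where it is the nearest start site.

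**Figure D1:**
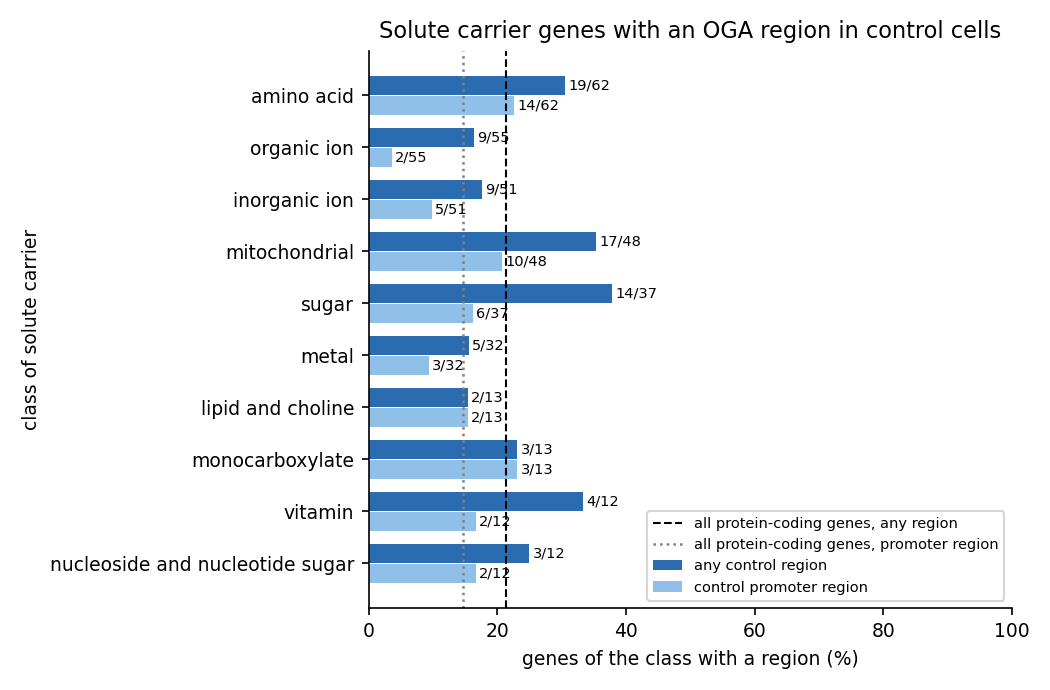
Share of protein-coding solute carrier genes with any OGA region (dark bars) and with a promoter region (light bars) in the control list, by class. Values are percent of the RefSeq genes of that class that fit the naming rule. The peptide, vesicular neurotransmitter and other classes are not drawn. Labels give genes with a region over genes in the class, and lines mark all protein-coding genes at 21.4% and 14.6%; the sugar and mitochondrial bars for any region extend furthest, at 14 of 37 and 17 of 48 genes.

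SLC3A2, the heavy chain also called 4F2hc or CD98, had the most control regions and the 3 widest of any member. It had 6 regions, where the gene with the most in the series had 10. They spanned 45.2 kb of chromosome 11 and covered 29.5 kb of it, which is 65.2% of the span and 13.1% of all base pairs in control SLC regions. The first lay at 62848717 to 62858551 (9835 bp), rank 2 by width among all 8977 control regions, and was named from 3 peaks of replicate 1 and 2 of replicate 2. It began 7392 bp upstream of the first SLC3A2 start site and ended 2442 bp past it.

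The second, at 62861135 to 62863303 (2169 bp), lay in intron 1 of 11. After a gap of 11707 bp came 4 more, with gaps of only 188, 317 and 948 bp between them. These were at 62875011 to 62877103 (2093 bp, exon 3 of 12), 62877292 to 62878809 (1518 bp, 2087 bp upstream of an inner start site), 62879127 to 62886060 (6934 bp, over inner start sites) and 62887009 to 62893964 (6956 bp, 3′ UTR). The last 2 ranked 7 and 6 by width in the control list. The 3 wide regions therefore lay over the first start site, over inner start sites and in the 3′ UTR. The stretch just after the first held a narrower region and the largest gap.

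The widest SLC3A2 region also reached another gene. Upstream of SLC3A2 lies SNHG1, a noncoding host gene of small nucleolar RNAs, and by gene order in RefSeq the region touched 11 genes, of which 9 are small nucleolar RNA genes, 1 is SNHG1 and 1 is SLC3A2. The knockdown region that overlapped it, at 62850425 to 62852459 (2035 bp), was assigned to SNORD22 and ended 3650 bp before the SLC3A2 start site. The only knockdown region assigned to SLC3A2 was 440 bp wide, at 62862474 to 62862913 in intron 1, inside the 2169 bp control region. The 4 control regions from exon 3 to the 3′ UTR had no knockdown overlap.

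**Figure D2:**
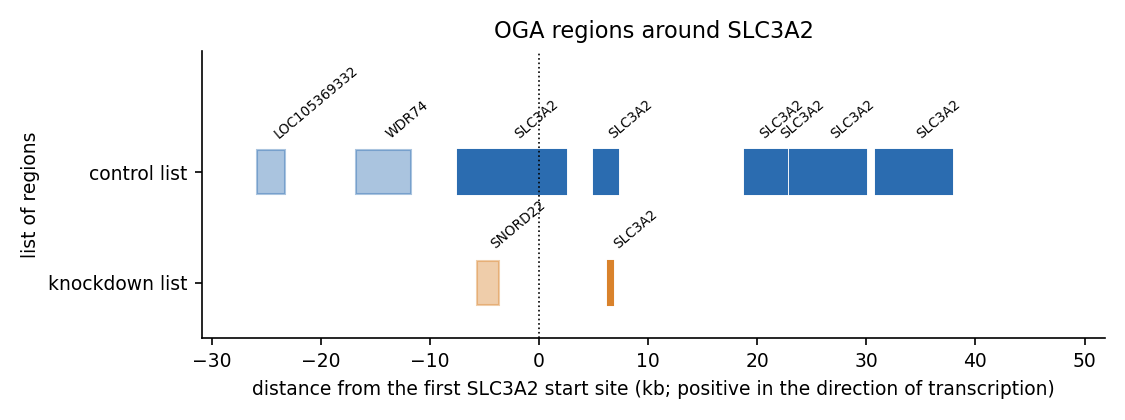
OGA regions in the control list (blue) and knockdown list (orange) around SLC3A2, by distance in kb from its first start site (dotted line); each bar is 1 region drawn to scale with its assigned gene, pale where that gene is no solute carrier. The control regions of SLC3A2 run from 7392 bp before the start to 37855 bp past it, and the 2 knockdown bars lie upstream of the start and in intron 1.

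The sequences before 2 SLC3A2 start sites are shown because the widest and the third widest control region of the group (9835 and 6934 bp) cover them, at chr11:62855859-62856108 and chr11:62880646-62880895, both on the plus strand (RefSeq, GRCh38.p14). Capitals mark exact matches, on either strand, to motifs that are listed with the promoter features, here the GC box GGGCGG and the CCAAT box.
SLC3A2 first start: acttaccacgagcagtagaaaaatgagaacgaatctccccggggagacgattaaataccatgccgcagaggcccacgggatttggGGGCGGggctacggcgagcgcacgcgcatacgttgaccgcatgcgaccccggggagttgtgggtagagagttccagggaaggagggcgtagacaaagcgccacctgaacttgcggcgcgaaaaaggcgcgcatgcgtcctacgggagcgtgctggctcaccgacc
SLC3A2 inner start: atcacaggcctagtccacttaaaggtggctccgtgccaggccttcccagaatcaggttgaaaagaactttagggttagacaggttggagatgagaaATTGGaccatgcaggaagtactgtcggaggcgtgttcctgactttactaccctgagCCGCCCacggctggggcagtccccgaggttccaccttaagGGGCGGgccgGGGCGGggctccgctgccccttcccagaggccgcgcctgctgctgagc
The first window had 61.6% GC and a CpG ratio, observed over expected, of 1.16. The inner window had 60.8% GC and a ratio of 0.521. Another SLC3A2 window, chr11:62881449-62881698, lies in the same 6934 bp region and had 65.6% GC and a ratio of 0.792. The CpG ratio was thus highest in the window beside SNHG1, and the GC share in the window at 62881449.

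Of 6 SLC7 light chains that pair with SLC3A2, 4 had a control region, 3 of them at a promoter. SLC7A7, a light chain for cationic and neutral amino acids, had 2 regions over start sites on chromosome 14, of 3340 bp at 22818804 to 22822143 and of 1129 bp. SLC7A8, a carrier of neutral amino acids, had a region of 2221 bp over its start. SLC7A5, the leucine carrier LAT1, had a promoter region of 1437 bp, 2162 bp upstream of its start, at 87871669 to 87873105 of chromosome 16. SLC7A11, the cystine and glutamate exchanger, had its region in exon 4 of 12. SLC7A6 and SLC7A10 had none in either list. SLC43A2, a carrier of large neutral amino acids that acts without SLC3A2, had regions in exon 6 of 10 (1557 bp) and intron 2 of 13 (1187 bp), and SLC43A1 had none.

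Other amino acid carriers had regions of ordinary width. SLC1A5, a glutamine exchanger, had a region over a start site (chromosome 19, 46783763 to 46785721, 1959 bp), and so did SLC1A3 (1406 bp), a glutamate carrier. SLC7A3, for cationic amino acids, had one over the start (1799 bp) and one of 1281 bp annotated as downstream of a gene end. SLC36A1, a lysosomal and plasma membrane proton-coupled carrier, had 1557 bp over a start. SLC6A6, the taurine carrier, had 3 regions and all were intronic, of 1911 and 1793 bp in intron 1 and of 2283 bp in intron 6 of 14. SLC6A5, SLC6A15, SLC6A20, SLC7A14, SLC16A10 and SLC32A1 had regions of 968 to 1458 bp. The median width over the 32 amino acid carrier regions was 1557 bp, so the width of SLC3A2 was not shared by its class.

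Of the 14 genes of the SLC2 family, SLC2A1 to SLC2A14, 11 had a control region and 5 a promoter region, against 21.4% and 14.6% of all protein-coding genes. SLC2A1, the widely used glucose carrier GLUT1, had its region (1840 bp) in intron 1 of 9, 5214 bp past the start. SLC2A3, the high-affinity carrier GLUT3, had 4 regions and none at a promoter. SLC2A14, its close paralogue, had 3, of which 920 and 1670 bp lay over start sites and 1872 bp in intron 1. SLC2A4, the insulin-responsive GLUT4, had 2072 bp ending 181 bp before its start. SLC2A8, SLC2A10 and SLC2A11 had regions over start sites, of 859, 1305 and 1708 bp. SLC2A5, the fructose carrier, had 1643 bp at 7732 bp upstream, and its neighbour SLC2A7 had 763 bp in intron 8 of 11. SLC2A12 (1483 bp, 26642 bp upstream) and SLC2A13 (1266 bp, intron 3 of 8), a myo-inositol carrier, completed the 11. SLC2A2, SLC2A6 and SLC2A9 had none. Of the family's 16 control regions, 6 were at promoters, and those of SLC2A12 and 3 of SLC2A3 lay at least 22624 bp from a start.

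The 7 regions of SLC2A3 and SLC2A14 lay within 99.5 kb of chromosome 12. Between those of the 2 genes lay another control region, at 7907070 to 7908895 (1826 bp), assigned to NANOGP1. The stretch is thus not particular to glucose carriers. Those of SLC2A3 were at 7916906 to 7919175 (2270 bp, annotated as downstream of a gene end), 7958811 to 7961697 (2887 bp), 7968003 to 7969832 (1830 bp) and 7970845 to 7971358 (514 bp). The last 3 were 22624, 31816 and 34658 bp upstream of the SLC2A3 start, and the 514 bp region was the narrowest of all 123. The knockdown list kept 1 region here, at 7959518 to 7960507 (990 bp), inside the 2887 bp control region. Reads may not be told apart between these similar paralogues, and the authors' handling of them was not given in the sources used here.

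**Figure D3:**
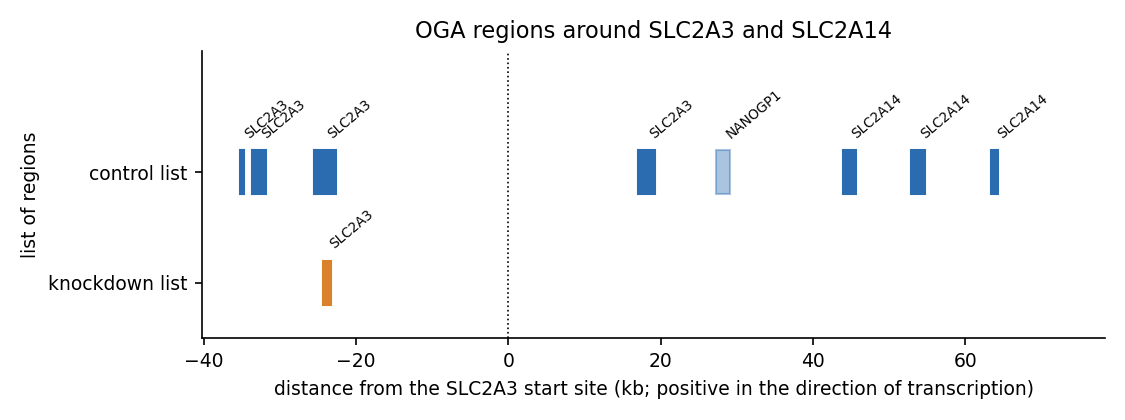
OGA regions in the control list (blue) and knockdown list (orange) around SLC2A3 and SLC2A14, by distance in kb from the SLC2A3 start site (dotted line), positive in the direction of transcription; pale bars belong to genes that are no solute carrier. No bar covers the SLC2A3 start, and the knockdown bar lies 23331 bp or more upstream of it, inside the 2887 bp control region.

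Other sugar carriers were few. SLC37A4, the glucose-6-phosphate carrier of the endoplasmic reticulum, had a promoter region of 2229 bp, 2893 bp past a start. Its other region, of 1976 bp, was annotated to a 3′ UTR but lay 11468 bp upstream of a SLC37A4 start. SLC37A3 had 1184 bp in exon 5 of 14. SLC5A2, a sodium-glucose carrier of the kidney, had 1583 bp annotated to a 3′ UTR but 3645 bp upstream of its start.

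In the SLC25 family, counted here as mitochondrial carriers, 17 of 48 genes had 23 control regions, and 10 genes had a promoter region. SLC25A20, the carnitine and acylcarnitine carrier, had 2179 bp over its start on chromosome 3, at 48898248 to 48900426. SLC25A25, an ATP-magnesium and phosphate carrier, had the widest promoter region of the class (2641 bp). SLC25A44, a carrier of branched-chain amino acids, had 2068 bp over a start, and SLC25A26, for S-adenosylmethionine, had 1293 bp.

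The 2 widest SLC25 regions, at SLC25A47 and SLC25A52, were not at promoters, and the third widest was the SLC25A25 promoter region (2641 bp). SLC25A47 had 3391 bp in its 3′ UTR (chromosome 14, 100329363 to 100332753). SLC25A51, a mitochondrial NAD carrier, had 2583 bp annotated to a 3′ UTR but 14479 bp upstream of its start. Its close copy SLC25A52 was the gene nearest to a region of 3049 bp that lay 64256 bp upstream of it. SLC25A39, a glutathione carrier, had 2393 bp in the 3′ UTR. Those of SLC25A18, SLC25A43 and SLC25A48 were in introns or exons. Promoter regions were also listed for SLC25A16, SLC25A17, SLC25A33, SLC25A35 and SLC25A42, and all regions of these 5 genes were 829 to 2125 bp wide.

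Inorganic ion carriers had 13 control regions at 9 genes. SLC12A9 had 3, of 2894 bp at 25167 bp upstream, past the end of another transcript, 1394 bp over a start and 1445 bp in exon 10 of 11. SLC26A6, an anion exchanger, had the widest promoter region of the class (2754 bp), and SLC26A11 had 1738 bp in intron 4 of 7. The regions of SLC4A7, SLC4A8, SLC8A2, SLC9A3 and SLC12A5 were 815 to 1648 bp wide.

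Metal carriers had 6 regions at 5 genes. The zinc carriers SLC39A1 and SLC39A10 had 2597 and 2287 bp over start sites, SLC39A12 had 1141 bp at 36919 bp upstream, and SLC39A8 had 1129 bp. SLC11A1, a metal carrier of macrophage phagosomes, had 2571 bp in a 5′ UTR. None of the 10 zinc exporter genes of SLC30 had a region in either list, where 21.4% of all protein-coding genes had one in control and 3.94% after knockdown. Families such as SLC10 (7 genes), SLC15 (5) and SLC24 (5) also had none in either list.

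Of the 9 organic ion carriers with a control region, SLC17A5 and SLCO4C1 had one at a promoter, of 1488 and 2000 bp. SLC47A1 (2642 bp, 7356 bp upstream), an extruder of organic cations, and its neighbour SLC47A2 (1189 bp) had intergenic regions. SLC17A7, a vesicular glutamate carrier, had 2443 bp in exon 2 of 12, SLC22A11, a carrier of organic anions, had 2283 bp in exon 5 of 9 and 1550 bp in its 3′ UTR, and SLCO4A1 had 2194 bp at 16775 bp upstream. SLC22A14 had 909 bp in an intron and SLCO2B1 1275 bp in an exon. Among the 21 SLC22 genes 2 had a control region and 0 a control promoter region, against 21.4% and 14.6% of all protein-coding genes.

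Smaller classes held single regions for the most part. In the monocarboxylate family, SLC16A1, a lactate carrier (1798 bp, 1753 bp past a start), SLC16A5 (2562 bp) and SLC16A13 (1676 bp) had promoter regions. SLC23A2, an ascorbate carrier, had 3, of 1516, 1062 and 1154 bp, all at promoters, and SLC52A3, a riboflavin carrier, had 1219 bp over a start. The thiamine carrier SLC19A3 (1290 bp) and the folate carrier SLC46A1 (1225 bp) had intergenic regions. SLC29A1, a nucleoside carrier, had 1970 bp over a start, and SLC28A1 had 1110 bp in a 5′ UTR. SLC27A1, a fatty acid carrier, and SLC44A2, a choline carrier, had 2 regions each, of 1611 and 1956 bp and of 1502 and 1434 bp. SLC66A1, a lysosomal amino acid exporter (1582 bp, 3′ UTR), and SLC49A3 (1148 bp, exon 6 of 10) stood for other families.

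Control SLC regions were as wide as the rest of the list. Their median was 1582 bp (interquartile range 1264 to 2102, n = 123), against 1577 bp over all 8977, and without SLC3A2 it was 1557 bp. Inside promoters the SLC median was 1538 bp (n = 58) and outside 1636 bp (n = 65). After knockdown the 15 SLC regions had a median of 641 bp (range 373 to 1059), against 727 bp over all 1334. Every knockdown SLC region was narrower than the control list's median, as were nearly all knockdown regions, of which 2.02% reached it.

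**Figure D4:**
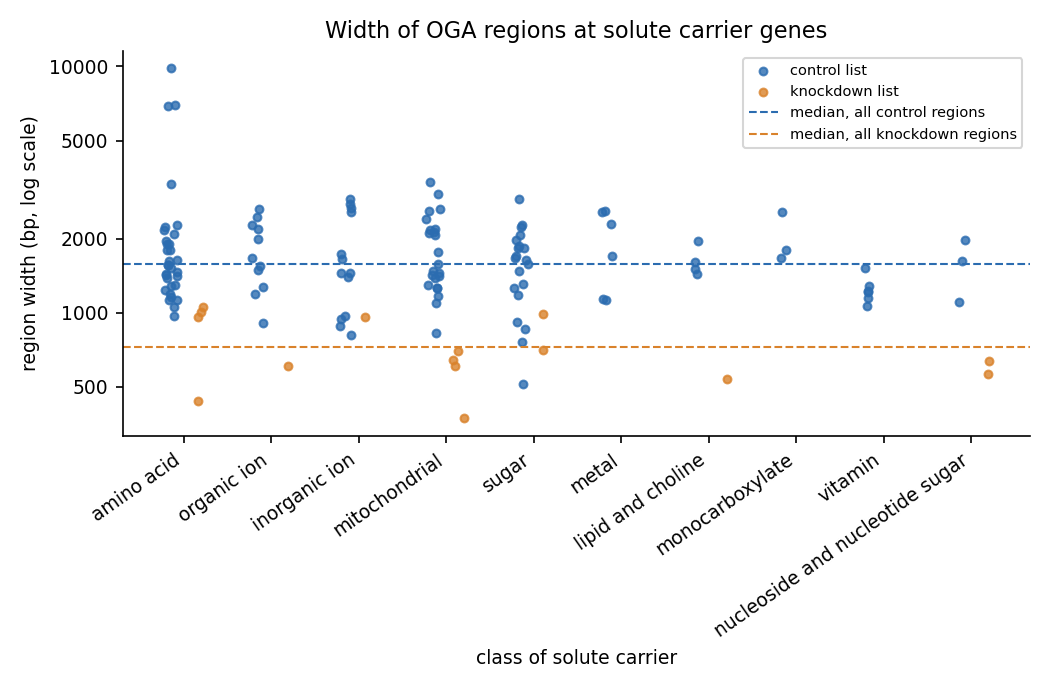
Width of OGA regions at solute carrier genes, in bp on a log axis, by class, for the control list (blue) and knockdown list (orange). The regions of other families (SLC49A3 and SLC66A1) are not drawn. Dashed lines are the medians of all regions, 1577 and 727 bp. The 3 blue points of SLC3A2 at 6934, 6956 and 9835 bp stand above the rest, and the orange points lie between 373 and 1059 bp.

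The share of SLC regions in exonic sequence stood apart from that of the list. Exons and UTRs outside promoters held 26 of 123 control SLC regions (21.1%), against 8.68% of the 6103 control regions of protein-coding genes. Exons held 15, 3′ UTRs 9 and 5′ UTRs 2. The exon or UTR was not always that of the assigned gene, and the SLC6A20 region lay in exon 19 of 20 of SACM1L. The 3′ UTR regions of SLC5A2, SLC37A4 and SLC25A51 lay 3645, 11468 and 14479 bp upstream of the SLC start. Introns held 21 (17.1%, against 20.6%), intergenic sequence 14 (11.4%, against 15.6%) and promoters 58 (47.2%, against 53.9% for protein-coding genes and 46.9% over all regions). A start site was covered in 35 (28.5%, against 28.5% over all regions and 34.0% for protein-coding genes). This pattern was picked out after the values were seen and was not tested, and neighbouring regions of a gene are not independent.

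Most members had a single region. Of the 87 control genes, 25 had at least 2 regions (28.7%, against 24.0% of all 6510 control genes), and 7 had at least 3 (8.05%, against 7.96%), among them SLC3A2, SLC2A3, SLC2A14, SLC6A6, SLC12A9 and SLC23A2. Only promoter regions were listed for 33 genes, both promoter and other regions for 16, and no promoter region for 38. More than 1 peak of a replicate was named for 6 SLC regions (4.88%, against 5.38% of all control regions): 3 of SLC3A2 and 1 each of SLC7A7, SLC25A25 and SLC25A35.

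After OGA knockdown, 14 of the 358 SLC genes had a region (3.91%, against 3.94% of all protein-coding genes), and 7 had a promoter region (1.96%, against 2.02%). Both lists held 12 of the genes, which is 13.8% of the 87 control members, against 14.3% of all control genes. Of the 123 control regions, 11 were overlapped by at least 1 bp (8.94%, Wilson 95% interval 5.07 to 15.3), against 10.0% of all control regions. Among promoter regions the count was 5 of 58 (8.62%, against 10.1%), and outside promoters 6 of 65 (9.23%). From the other side, 11 of 15 knockdown SLC regions met a control region (73.3%, 48.0 to 89.1), against 69.0% of all. Of the 15, 7 were in the promoter class (46.7%, against 39.1% of all knockdown regions). In each of these measures the solute carriers were close to the whole series.

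The overlapping knockdown regions were nested. All 11 lay wholly inside the control region they overlapped, against 83.9% of the 921 such regions in the series. At SLC7A11 the knockdown region (chromosome 4, 138223072 to 138224130, 1059 bp) covered 64.7% of the control region of 1636 bp, and their centres were 48 bp apart. At SLC38A9, a lysosomal arginine sensor, the pair in intron 6 of 13 shared 1011 of 1292 bp on chromosome 5. At SLC38A8, a glutamine carrier, the pair in intron 9 of 10 shared 963 of 1910 bp. At SLC25A18, a mitochondrial glutamate carrier, the knockdown region (641 bp) lay 614 bp off the centre of its control region of 2178 bp, in intron 2 of 9.

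**Figure D5:**
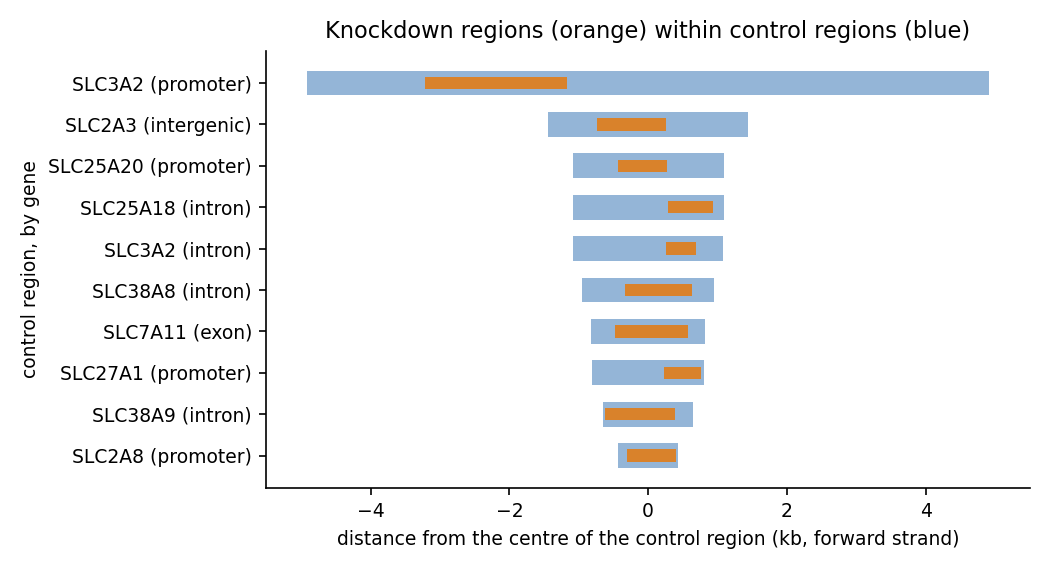
Control regions at solute carrier genes that a knockdown region overlapped (blue; 10 of the 11 are drawn), each centred at 0, with the overlapping knockdown region (orange), in kb along the forward strand; rows are ordered by control width. Every orange bar lies inside its blue bar, and the offset is largest, 2192 bp, in the SLC3A2 region of 9835 bp.

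At promoters, SLC25A20, SLC27A1 and SLC2A8 were among the genes with a region in both lists that overlapped. The knockdown region at SLC2A8, an intracellular glucose carrier, covered 709 of 859 bp on chromosome 9 (82.5%). At SLC25A20 it covered 697 of 2179 bp and ended 26 bp before the start, and at SLC27A1 it covered 537 of 1611 bp. SLC35A2, which carries UDP-galactose into the Golgi, also had a promoter region in both lists, but there the regions did not meet. Its control region covered the start (X chromosome, 48911424 to 48913045, 1622 bp), and its knockdown region (48908340 to 48908979, 640 bp) lay 2667 bp past it. In all, 5 of 49 genes with a control promoter region had one in both lists (10.2%, against 10.4% of all such genes).

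The other 4 knockdown regions met no control region, among them that of SLC35A2, one 3133 bp upstream of SLC17A5 (611 bp), a lysosomal sialic acid exporter, and one 1611 bp upstream of SLC4A5 (959 bp), a sodium bicarbonate carrier. SLC4A5 and SLC35A5 were in the knockdown list only. At SLC35A5, however, the knockdown region (chromosome 3, 112562009 to 112562575, 567 bp) lay inside a control region of 2524 bp that had been assigned to ATG3, the divergent neighbour. SLC4A5 had no control region under either assignment.

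Regions of both lists reached the RefSeq start windows of 5 genes, and sequences are shown for the 4 whose knockdown region was assigned to them: SLC25A20 at chr3:48898883-48899132 (minus strand), SLC27A1 at chr19:17470274-17470523, SLC2A8 at chr9:127396919-127397168 and SLC35A5 at chr3:112561795-112562044 (plus strand). Each is the 250 bases before the start, from RefSeq (GRCh38.p14), 5′ to 3′, with motif matches in capitals.
SLC25A20: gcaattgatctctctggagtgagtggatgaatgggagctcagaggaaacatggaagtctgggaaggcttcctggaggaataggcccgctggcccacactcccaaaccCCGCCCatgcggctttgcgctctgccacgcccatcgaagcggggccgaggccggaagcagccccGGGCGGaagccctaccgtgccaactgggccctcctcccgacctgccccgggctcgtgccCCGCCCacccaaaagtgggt
SLC27A1: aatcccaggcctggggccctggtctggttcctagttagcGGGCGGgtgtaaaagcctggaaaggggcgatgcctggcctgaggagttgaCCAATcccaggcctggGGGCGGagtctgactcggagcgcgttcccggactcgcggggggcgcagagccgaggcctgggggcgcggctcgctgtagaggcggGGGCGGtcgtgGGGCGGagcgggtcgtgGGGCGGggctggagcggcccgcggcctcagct
SLC2A8: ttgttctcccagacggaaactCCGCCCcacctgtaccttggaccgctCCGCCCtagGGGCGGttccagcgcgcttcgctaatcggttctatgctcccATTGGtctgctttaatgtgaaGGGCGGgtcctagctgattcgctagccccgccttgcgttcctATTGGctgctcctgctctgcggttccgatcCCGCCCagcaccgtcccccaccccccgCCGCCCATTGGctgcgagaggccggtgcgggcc
SLC35A5: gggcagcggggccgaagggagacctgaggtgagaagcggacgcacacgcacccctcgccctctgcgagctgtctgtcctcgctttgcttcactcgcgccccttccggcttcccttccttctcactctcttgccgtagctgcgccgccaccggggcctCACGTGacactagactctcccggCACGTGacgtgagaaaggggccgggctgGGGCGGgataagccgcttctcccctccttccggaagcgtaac
The GC box is in all 4, with 3, 5, 6 and 1 matches. SLC2A8 also has 3 CCAAT boxes and SLC27A1 has 1, while SLC35A5 has the E box CACGTG. Matches were counted over the whole window, and only at SLC2A8 did the knockdown region cover all of it. At SLC35A5 the knockdown region began at 112562009, past the GC box and the E box matches. At SLC25A20 and SLC27A1 the GC boxes nearest the start lay outside the knockdown region. GC content was 66.0%, 72.8%, 65.2% and 66.8%.

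Promoter features were then set beside all promoters. The RefSeq table gives windows of 250 bases before to 50 after a start, 388 of them for SLC genes of the rule, and some genes have several. A control region overlapped 45 SLC windows at 31 genes. Motifs were searched on both strands in the 250 bases before the start. The GC box GGGCGG was found in 60.0% of the 45 windows, in 62.5% of all 3477 windows overlapped by a control region, and in 42.6% of all 35116 windows. The CCAAT box CCAAT was in 37.8%, against 43.4% and 32.0%, and the E box CACGTG in 13.3%, against 8.25% and 6.34%. The amino acid response element core TGATGNAA was in 3 of the 45 (6.67%, against 1.70% and 3.14%), at SLC1A3, SLC1A5 and SLC25A11. The cAMP response element TGACGTCA was in 3 (6.67%, against 3.13% and 1.65%), at SLC25A25, SLC25A33 and SLC39A1. The NRF1 motif was in 1 (SLC2A11; 2.22%, against 1.78% and 1.03%), and the nuclear receptor motif AGGTCA in 2 (4.44%, against 9.12% and 12.1%). No motif contains another, although matches may lie beside each other.

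Median GC content was 63.2% in the 45 windows and 64.0% in the 343 SLC windows without a control region. The median CpG ratio was 0.752 (interquartile range 0.568 to 0.911) against 0.652 (0.269 to 0.852). Over all genes the same ratio was 0.781 in windows with a control region and 0.495 in those without. Matches describe letters only, and no factor was measured.

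Assignment to the nearest start site left out some solute carriers. A control region overlapped the start window of 7 genes that the control list does not name as such, among them SLC25A3, the mitochondrial phosphate carrier, SLC25A5, an ADP/ATP carrier, SLC33A1, the acetyl-CoA carrier of the endoplasmic reticulum, SLC4A2 and SLC25A11. Those regions were assigned to PPIAP8 (2740 bp), SLC25A5-AS1 (1606 bp), LOC105374174 (1569 bp), CDK5 (2680 bp) and RNF167 (800 bp). The other two were SLC35A5 and SLC68A1, listed under its older name MFSD13A (2753 bp). At SLC25A25 the start window was reached in both lists by regions assigned to NAIF1, of 1306 bp in control and 958 bp after knockdown. A further 11 control regions lay in an intron or exon of an SLC gene but were assigned to another, such as 2077 bp in intron 12 of 13 of SLC38A9. SLC38A9 also held a second knockdown region of 537 bp, in intron 7 of 13, that no control region overlapped.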

How the data were processed

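OGA CUT&Tag was measured in 4 libraries, grouped by their titles. The build GRCh38.p13 and the tools SEACR 1.3, Bowtie2 2.3.4.3, edgeR, DESeq2 and ChIPseeker 1.12.1 come from the submitters' processing notes, which give them no role. The authors deposited, per the file headers, 1 annotated list per group with positions, widths and distances in base pairs. A repeated control line was used once.

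Members were taken by symbol from the names as listed. The members, classes and motifs were chosen with earlier results of these data known. SLC23, first put with inorganic ions, was counted with vitamins, and SLC43 was described apart from the SLC3A2 partners. Named genes were those with a knockdown region, with at least 3 control regions or with the widest regions overall and per class. SLC3A2 partners and SLC2 genes were named as well. Results at some members are left out of the text and of the plot of nested regions. The genes named at start windows, motifs and exons were chosen after their values were seen.

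Overlap meant at least 1 bp. RefSeq tables (GRCh38.p14) gave gene types and promoter windows. Of 2511 curated transcripts listed in control, 2326 had exactly the start of a table window. With predicted transcripts included the count was 2900 of 5004, and 45 of 83 for SLC genes. Many listed starts thus had no window of their own. A planned count test was not run, since the lists hold no counts. Overlap counting recovered planted overlaps when tested on simulated data. Scripts ran in Python 3.11.15 (pandas 2.3.3, numpy 2.4.6, matplotlib 3.10.9, scipy 1.17.1).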

Additional observations from a re-analysis of the deposited data

How the results depend on the processing

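No paired analysis was possible because each list merges both replicates, so that a replicate block or leaving out a replicate was not run. Of 59 values under 12 alternatives, 50 stayed within 1.5 times the reported count or width or within the interval of the overlapped share. The other 9 came from keeping wide regions only. When only regions reaching the control median width were kept, 50 SLC genes had a control region, 27 a control promoter region, 0 a knockdown region, 0 a knockdown promoter region and 0 were in both lists, and 1.59% of control SLC regions were overlapped. With the control list limited to its widest regions, equal in number to the knockdown list, 15 genes had a control region, 6 a promoter region and 2 were in both lists, while the knockdown list, left whole, had 14 genes and 7 with a promoter region. The gene counts, 87 against 14 in the full lists, were thus 15 against 14 at equal numbers of regions. Cutting the control list lowers its count by construction, so this setting cannot decide whether the groups differed at these genes. Keeping only regions of the control median width removes the narrower knockdown regions by construction. With any letter after the family number, an alternative chosen after seeing the data, 95 genes had a control region, the added ones being SLC35B1, SLC35B4, SLC35C1, SLC35E4, SLC35F1, SLC35F2, SLC35F6 and SLC9C1. Adding the gene of the exon or intron, also chosen afterwards, gave 93.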

Other observations

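Members of the same and of different families lay near each other in places. The gap between control regions was 68.4 kb for SLC2A7 and SLC2A5, 24.7 kb for SLC2A14 and SLC2A3, 203 kb for SLC47A1 and SLC47A2 and 261 kb for SLC26A6 and SLC25A20. SLC35F6, outside the naming rule, had 4 control regions on chromosome 2, of 1749, 2757, 2154 and 3837 bp, and SLC35B4 had a control region over its start (1019 bp) and a knockdown region 17147 bp past it in an exon (1164 bp) that did not overlap. The pseudogene SLC25A5P7 had an intergenic region in both lists, of 1964 and 1130 bp, which overlapped.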
